A study of Mus musculus with 6 samples.

Results

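The genes described here encode the collagens, the laminins, the thrombospondins and a set of other matrix glycoproteins and proteoglycans, measured in the mouse retina at postnatal day 4. They were chosen by gene symbol alone: every collagen chain (Col followed by its type and chain number), every laminin chain, every thrombospondin, and Sparc, Sparcl1, Fn1, Nid1, Nid2, Hspg2, Agrn, Tnc, Vcan, Ncan, Bcan, Fbn2, Smoc2 and Optc. This gave 64 genes with 102 probe sets, out of 12393 genes with a probe set of their own on the array. Fbn1 and Spp1 were also named by the rule and were not analysed here, because no probe set was paired with either symbol alone. Total RNA came from the retinas of 3 Nhlh2 knockout mice and 3 wildtype mice, each hybridised to 1 Affymetrix Mouse 430A 2.0 array, a single-colour array on which a probe set of short probes reports a transcript. Nhlh2 is a basic helix-loop-helix transcription factor of developing neurons. All mice, of both genotypes, were on a mixed C57/129 background, and a knockout and a wildtype mouse of the same replicate number were littermates. The sources used here do not describe the knockout allele, and no probe set was paired with the symbol Nhlh2 alone, so the loss of its own mRNA was not checked.

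Collagens are trimers of alpha chains, so a collagen can be secreted only where all the chains of one of its trimers are made. In a basement membrane, a sheet of type IV collagen and a sheet of laminin trimers lie on each other and are joined by nidogen, perlecan (Hspg2) and agrin. The retina has such a sheet at its vitreal face, the inner limiting membrane, and others around its blood vessels, while collagens II, IX and V/XI and opticin belong to the vitreous gel. In the mouse the first retinal vessels spread over the inner surface in the days after birth, guided by astrocytes, while the hyaloid vessels of the vitreous are still present.

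The deposited values are MAS 5.0 signals, a linear measure of brightness that was not scaled between these arrays. The median signal was 68.4, 9.0 and 51.3 in knockout replicates 1 to 3, against 76.1, 95.5 and 56.9 in wildtype replicates 1 to 3. Knockout replicate 2 stood apart: its ratio of 3′ to 5′ signal for Actb was 274, against 1.38 to 1.56 on the other arrays, and its rank correlations with them were 0.642 to 0.669, where those among the other arrays were 0.947 to 0.975. Comparisons of genotype therefore use knockout replicates 1 and 3, and the values with replicate 2 are given beside the fold changes named. All 7 measured markers of retinal neurons and all 6 of ganglion cells were above the array median in every wildtype array. Wildtype replicate 1 held lens transcripts, with 6 of 9 lens genes above its median and a summed lens signal of 6130, against 64.4, 48.7 and 70.5 in knockout replicates 1 to 3 and 82.4 and 86.1 in wildtype replicates 2 and 3. After normalisation the same array was the highest of the 5 without knockout replicate 2 for 6 of 12 genes of fibroblasts and other mesenchyme. It was the highest for 16.4% of all genes above the median in all 3 wildtype arrays, a share that does not cover genes of low signal. Pigment epithelium and pigment cell markers, of which 6 of 9 were above the median in all 3 wildtype arrays, were highest in wildtype replicate 1 for 4 of 9. Their summed signal was 3952, 1134 and 5363 in the knockout arrays, against 5690, 6759 and 5526 in the wildtype arrays. Most of it was Ttr, with 2309, 912 and 3901 in the knockout arrays, against 3128, 4132 and 4336 in the wildtype arrays. Of the 12 mesenchymal genes only Igf2 was above the median in all 3 wildtype arrays. The summed signal of the 12 was 1491, 74.1 and 1539 in the knockout arrays, against 1899, 1701 and 1810 in the wildtype arrays. Igf2 alone had 1135, 3.2 and 1240 in the knockout arrays, against 1295, 1245 and 1538 in the wildtype arrays, so the sums say little about the other mesenchymal genes.

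A gene was counted as expressed when its brightest probe set lay above the array's own median in all 3 wildtype arrays. By this measure 21 of the 64 matrix genes were expressed, where 51.3% of all 12393 genes were. A further 9 passed the median in 1 wildtype array, which was wildtype replicate 1 for 8 of them and replicate 3 for Col16a1. The remaining 34 were below the median in every wildtype array and also in knockout replicates 1 and 3, with wildtype signals between 0.8 and 69.7. Signals of different probe sets depend on the probes as well as on the transcript, so no order of abundance is read between genes. A signal below the median is not the absence of a transcript. As deposited, knockout replicates 1 and 3 were both below all wildtype arrays for 8 of the 21, where 20.7% of all expressed genes were. Separation of the genotypes in the next paragraphs is on that unscaled signal and on the brightest probe set of each gene. After quantile normalisation the brightest probe sets of Col4a1, Col4a2, Col18a1 and Hspg2, which are among these 8 genes, overlapped. In whole retinas, fewer cells of a type and less RNA per cell cannot be told apart.

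**Figure D1:**
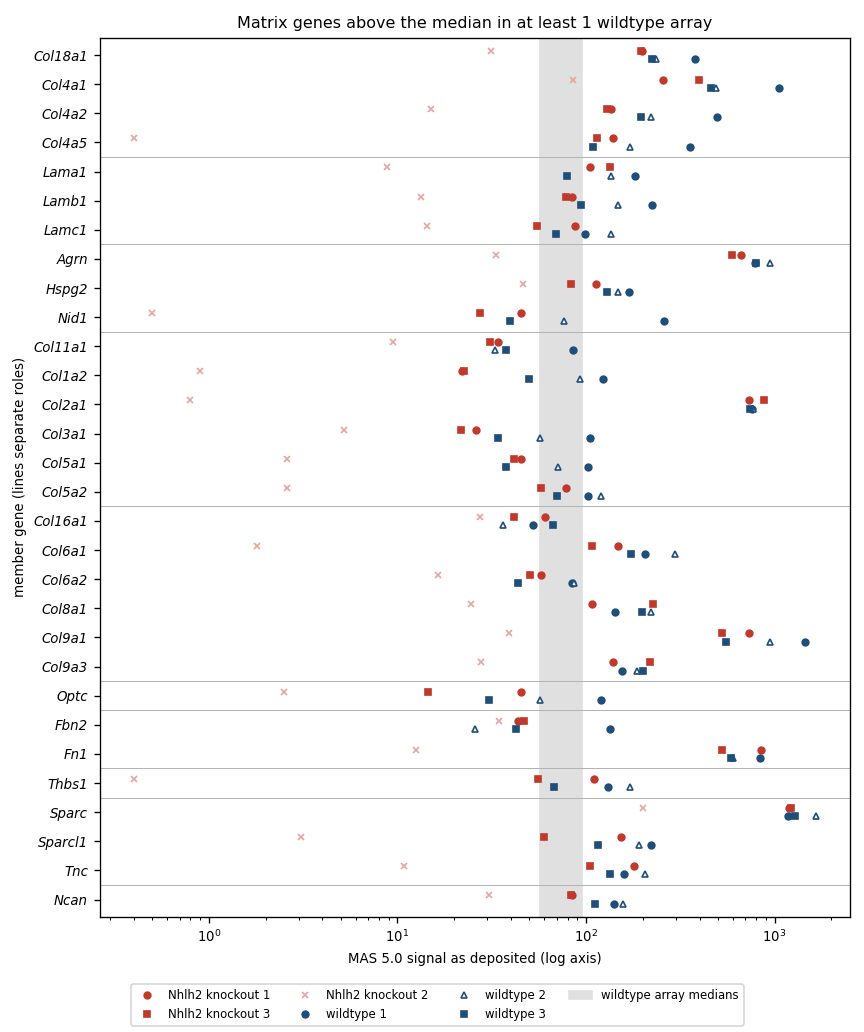
Signals of the 30 matrix genes that passed the array median in at least 1 wildtype array, each gene shown by its brightest probe set on a log axis, with red symbols for knockout arrays, blue for wildtype arrays and a grey band from the lowest to the highest wildtype median. Col2a1, Agrn and Sparc had closely grouped wildtype signals as deposited, while Nid1, Fbn2 and Optc passed the band in wildtype replicate 1 alone.

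The basement membrane collagens were represented by 4 of 8 genes. Col4a1 and Col4a2, whose chains form the common type IV trimer, were both expressed. Col4a1 had signals of 256, 85.7 and 398 in knockout replicates 1 to 3, against 1051, 488 and 458 in wildtype replicates 1 to 3. Col4a2 had 137, 15.0 and 129.9 in the knockout arrays, against 494, 220.4 and 197 in the wildtype arrays. Both genes were brightest in wildtype replicate 1, and every wildtype array was above every knockout array for both. Col4a5, a chain of the rarer trimers, had 139.6, 0.4 and 114 in the knockout arrays, against 357, 172 and 108 in the wildtype arrays, so the genotypes overlapped. Col18a1, the source of endostatin, had 198, 31.5 and 197 in the knockout arrays, against 378, 236 and 223 in the wildtype arrays. This probe set had no overlap on this scale, while the second Col18a1 probe set, also expressed, did overlap. Col4a3, Col4a4, Col4a6 and Col15a1 were below the median in all wildtype arrays. Col4a3 and Col4a4 encode the partners of the Col4a5 chain in the trimer best known from the glomerulus.

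The start sites of Col4a1 and Col4a2 lie head to head on chromosome 8, so that the 2 windows around them overlap. In RefSeq sequence of build GRCm38.p6, the window of 250 bases before and 50 after the Col4a2 start is chr8:11312555-11312854 on the plus strand, and that of Col4a1 is chr8:11312777-11313076 on the minus strand. The windows share 78 bases, printed in capitals below. These are made up of the 50 bases after each start, and no base lies before both starts. The pair is shown because the brightest probe sets of both genes moved together over the arrays. Any part of the shared sequence in this was not tested.
Col4a2: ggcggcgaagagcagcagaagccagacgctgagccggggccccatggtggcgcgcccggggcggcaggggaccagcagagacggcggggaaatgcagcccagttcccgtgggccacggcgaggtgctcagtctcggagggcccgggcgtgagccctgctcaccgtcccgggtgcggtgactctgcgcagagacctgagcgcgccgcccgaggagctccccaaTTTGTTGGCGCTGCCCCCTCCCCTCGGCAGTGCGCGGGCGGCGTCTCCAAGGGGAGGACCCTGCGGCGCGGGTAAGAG
The Col4a2 window had a GC content of 73.7% and that of Col4a1 74.0%, and both held GGGCGG, the core of an Sp1 motif, and CCAAT on either strand, while neither held TATAAA.

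The laminins were represented by 3 of 10 genes, Lama1, Lamb1 and Lamc1, 1 for each arm of the trimer known as laminin-111. Lama1 had signals of 105, 8.8 and 135 in the knockout arrays, against 182, 136 and 79.5 in the wildtype arrays. For Lamb1 the signals were 84.6, 13.3 and 78.4 in the knockout arrays, against 223, 148 and 93.8 in the wildtype arrays. Lamc1 had 87.0, 14.4 and 54.9 in the knockout arrays, against 98.6, 136 and 69.4 in the wildtype arrays. Lamb1 was separated by genotype on every array, whereas Lama1 and Lamc1 overlapped. Lama2 to Lama5, Lamb2, Lamb3 and Lamc3 were below the median in all wildtype arrays. Lamb2, which is known from the inner limiting membrane, was among them.

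Of the molecules that join the laminin and collagen sheets, agrin and perlecan were expressed. Agrn, best known for clustering acetylcholine receptors, had signals of 659.6, 33.3 and 594 in the knockout arrays, against 783, 945 and 796 in the wildtype arrays. Hspg2 had 113, 46.5 and 82.9 in the knockout arrays, against 169, 149 and 130.0 in the wildtype arrays. As deposited no knockout signal reached the lowest wildtype signal for either gene, but after normalisation Hspg2 overlapped, with 6.85 and 6.75 on the log2 scale in knockout replicates 1 and 3, against 7.26, 6.76 and 7.25 in the wildtype arrays. Nid1, the nidogen that links laminin to collagen IV, had 45.0, 0.5 and 27.3 in the knockout arrays, against 260.2, 76.7 and 39.6 in the wildtype arrays. Its wildtype signals spread widely, with a coefficient of variation of 94.1%, and only wildtype replicate 1 passed its median. Nid2 did not pass in any wildtype array.

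Fibrillar collagens build the banded fibrils of connective tissue, cartilage and vitreous. Only Col2a1 and Col5a2 of the 9 measured were expressed. Col2a1, the fibril collagen of cartilage and vitreous, had signals of 728, 0.8 and 877 in the knockout arrays, against 763, 765 and 739.7 in the wildtype arrays. As deposited its wildtype coefficient of variation was 1.85%, where the median was 27.9% over the 21 expressed genes and 21.7% over all 6360. After normalisation its wildtype log2 signals were 9.48, 9.21 and 9.69, a wider span than that of Tnc or Sparc. Col5a2 had 77.9, 2.6 and 57.4 in the knockout arrays, against 103, 119.9 and 70.1 in the wildtype arrays, and overlapped as deposited.

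By their brightest probe sets Col1a2, Col3a1, Col5a1 and Col11a1 passed the median in wildtype replicate 1 alone. Col1a2, a chain of the type I collagen of fibroblasts, had 22.0, 0.9 and 22.6 in the knockout arrays, against 123, 92.5 and 50.1 in the wildtype arrays. Col3a1, the collagen of vessel walls and loose connective tissue, had 26.0, 5.2 and 21.8 in the knockout arrays, against 105, 57.1 and 34.0 in the wildtype arrays. Knockout signals were below all wildtype signals for both, genes that were picked by a high wildtype array. Col5a1 had 45.4, 2.6 and 41.7 in the knockout arrays, against 103, 71.2 and 37.8 in the wildtype arrays, and Col11a1 had 34.2, 9.5 and 31.1 in the knockout arrays, against 85.1, 33.0 and 37.7 in the wildtype arrays. Both overlapped between the genotypes. Col1a1, the partner of Col1a2 in the type I trimer, was below the median in all wildtype arrays, as were Col5a3 and Col11a2.

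The other collagens were represented by 4 of 19 genes. Collagen IX, which coats the type II fibrils of cartilage and vitreous, was represented by Col9a1 and Col9a3, while Col9a2 was below the median. Col9a1 had signals of 734, 39.3 and 524 in the knockout arrays, against 1448, 942 and 550.2 in the wildtype arrays. Col9a3 had 139, 27.6 and 218 in the knockout arrays, against 155, 187 and 201 in the wildtype arrays. The genotypes overlapped for both. Col6a1, a chain of the beaded filaments around cells, had 147, 1.8 and 108 in the knockout arrays, against 205, 295 and 174 in the wildtype arrays, with every wildtype array above every knockout array. Its partner Col6a2 passed the median in 1 wildtype array and Col6a3 in none. Col8a1, a short-chain collagen of vessels and of the corneal Descemet membrane, had 107, 24.6 and 226 in the knockout arrays, against 143, 222 and 198 in the wildtype arrays, and overlapped. Opticin, a proteoglycan of the vitreous made by the ciliary body, is encoded by Optc, which had 45.0, 2.5 and 14.5 in the knockout arrays, against 120.2, 56.7 and 30.6 in the wildtype arrays.

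Among the soluble and pericellular glycoproteins, Sparc, a collagen-binding protein that counters cell spreading, had signals of 1198, 200.3 and 1220 in the knockout arrays, against 1183, 1648 and 1282 in the wildtype arrays. Fn1, fibronectin, which binds integrins and is laid down by astrocytes and vessels, had 845, 12.6 and 528 in the knockout arrays, against 842, 602 and 585 in the wildtype arrays. Tnc, tenascin C, had 179.6, 10.8 and 105 in the knockout arrays, against 159.6, 205 and 134 in the wildtype arrays. All 3 genes overlapped between the genotypes. Thbs1, a thrombospondin that binds CD47 and restrains angiogenesis, had 109.9, 0.4 and 55.6 in the knockout arrays, against 131, 171 and 67.5 in the wildtype arrays, and Thbs2 to Thbs4 were below the median. Sparcl1, made by astrocytes and Müller glia, had 154, 3.1 and 60.2 in the knockout arrays, against 222, 191 and 116 in the wildtype arrays. Ncan, the lectican neurocan of the perineuronal matrix, had 84.1, 30.5 and 83.4 in the knockout arrays, against 140.3, 157 and 111 in the wildtype arrays, and only for Ncan among these 3 was there no overlap. Vcan and Bcan, the other lecticans, were below the median, as was Smoc2.

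The probe sets of a gene did not always tell the same story. Of the 33 matrix genes with more than 1 probe set, 4 had all of them above the median in the wildtype arrays, and 10 had probe sets on both sides: Col4a5, Col5a2, Col8a1, Col9a3, Fn1, Hspg2, Lamb1, Lamc1, Ncan and Thbs1. The second Col4a1 probe set had 101, 19.6 and 92.3 in the knockout arrays, against 224, 184 and 146 in the wildtype arrays, and so kept the genotypes apart as the first did. That of Col18a1 had 140.2, 31.3 and 102 in the knockout arrays, against 172.8, 172 and 93.6 in the wildtype arrays, and so overlapped where the first did not. The second Fn1 probe set had 46.1, 20.2 and 32.6 in the knockout arrays, against 24.7, 51.8 and 38.1 in the wildtype arrays, below the median in every array but knockout replicate 2. Another Col5a1 probe set had 68.0, 5.5 and 49.8 in the knockout arrays, against 81.4, 56.2 and 57.8 in the wildtype arrays, and passed the median in wildtype replicates 1 and 3. For Lamc1 the second probe set had 3.8, 0.8 and 4.3 in the knockout arrays, against 5.5, 30.7 and 3.9 in the wildtype arrays.

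To compare arrays, signals were quantile normalised, which gives every array the same distribution, and expressed as log2(signal + 1). The 5 arrays without knockout replicate 2 were then set side by side. Of the 21 expressed matrix genes, 9 were highest in wildtype replicate 1, where 16.4% of all expressed genes were. Wildtype replicate 3 was highest for 2 (26.9%), wildtype replicate 2 for 3 (14.1%), knockout replicate 3 for 5 (27.1%) and knockout replicate 1 for 2 (15.4%). The lowest array was knockout replicate 1 for 6 (17.5% of all expressed genes), knockout replicate 3 for 7 (22.1%), wildtype replicate 1 for 1 (17.6%), wildtype replicate 2 for 5 (20.2%) and wildtype replicate 3 for 2 (22.7%). The difference of wildtype replicate 1 from the mean of the other wildtype arrays had a median of 0.24 over the matrix genes, of which 14 of 21 were higher. Its median over the 9 expressed basement membrane genes was 0.78, and over the other 12 it was 0.04.

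All 4 expressed basement membrane collagens were highest in wildtype replicate 1, with a median deviation of 1.04 from each gene's mean over the 5 arrays. Col4a1 had a log2 signal of 8.02 and 8.92 in knockout replicates 1 and 3, against 9.95, 8.53 and 9.01 in wildtype replicates 1 to 3. Col4a2 had 7.12 and 7.37 in the knockout arrays, against 8.84, 7.36 and 7.84 in the wildtype arrays. After normalisation these brightest probe sets overlapped between the genotypes, and the order of the 5 arrays was the same for both: wildtype replicate 1, wildtype replicate 3, knockout replicate 3, wildtype replicate 2 and knockout replicate 1. The second Col4a1 probe set did not overlap and had another order, with 6.69 and 6.90 in knockout replicates 1 and 3, against 7.68, 7.09 and 7.42 in the wildtype arrays. In wildtype replicate 1 the 3 expressed laminins had a median deviation of 0.43, and that of the 2 expressed fibrillar collagens was 0.02, of the 3 matricellular glycoproteins -0.08 and of the 4 other collagens -0.12. Within the other collagens, Col9a1 was 1.06 above the mean of the other wildtype arrays and Col8a1 differed from it by -0.59.

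Among the 21 expressed genes, the widest ranges over the 5 arrays were those of Col4a1, at 1.93, Col4a2, at 1.72, and Col4a5, at 1.37, followed by Col8a1, at 1.35, and Sparcl1, at 1.35. Col8a1 had a log2 signal of 6.78 and 8.13 in knockout replicates 1 and 3, against 7.02, 7.37 and 7.85 in wildtype replicates 1 to 3, so that its extremes were the 2 knockout arrays. Sparcl1 had 7.29 and 6.32 in the knockout arrays, against 7.67, 7.13 and 7.10 in the wildtype arrays. Narrow ranges were those of Col5a2, at 0.29, Sparc, at 0.33, and Agrn, at 0.38.

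The 8 genes that passed the median in wildtype replicate 1 alone were all highest in that array, which is how they were picked, as were 77.0% of the 152 such genes on the whole array. Their values are given as a description. Nid1 had a log2 signal of 5.53 and 5.21 in knockout replicates 1 and 3, against 7.90, 5.79 and 5.60 in wildtype replicates 1 to 3, while its second probe set overlapped, with 4.08 and 2.58 in the knockout arrays, against 6.07, 4.88 and 2.79 in the wildtype arrays. Col1a2 had 4.54 and 4.93 in the knockout arrays, against 6.81, 6.06 and 5.93 in the wildtype arrays, and Col3a1 had 4.77 and 4.88 in the knockout arrays, against 6.57, 5.38 and 5.37 in the wildtype arrays. These 3 of the 8 had both knockout arrays below all wildtype arrays, where 10.5% of the 152 genes did, and nothing is read from this, because a gene picked by a high wildtype array is favoured to lie lower in the knockout. Optc had 5.53 and 4.28 in the knockout arrays, against 6.77, 5.37 and 5.22 in the wildtype arrays, so that knockout replicate 1 lay among the wildtype arrays. Fbn2, fibrillin 2 of elastic microfibrils, had 5.49 and 5.996 in the knockout arrays, against 6.93, 4.28 and 5.69 in the wildtype arrays, with wildtype replicate 2 the lowest. The high values of wildtype replicate 1 came from the array with the lens transcripts, on which the mesenchymal markers had a median deviation of 0.53 and the pigment cell markers one of 0.54 from their 5-array means, and the part of lens, mesenchymal or pigment cell RNA in them was not tested.

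**Figure D2:**
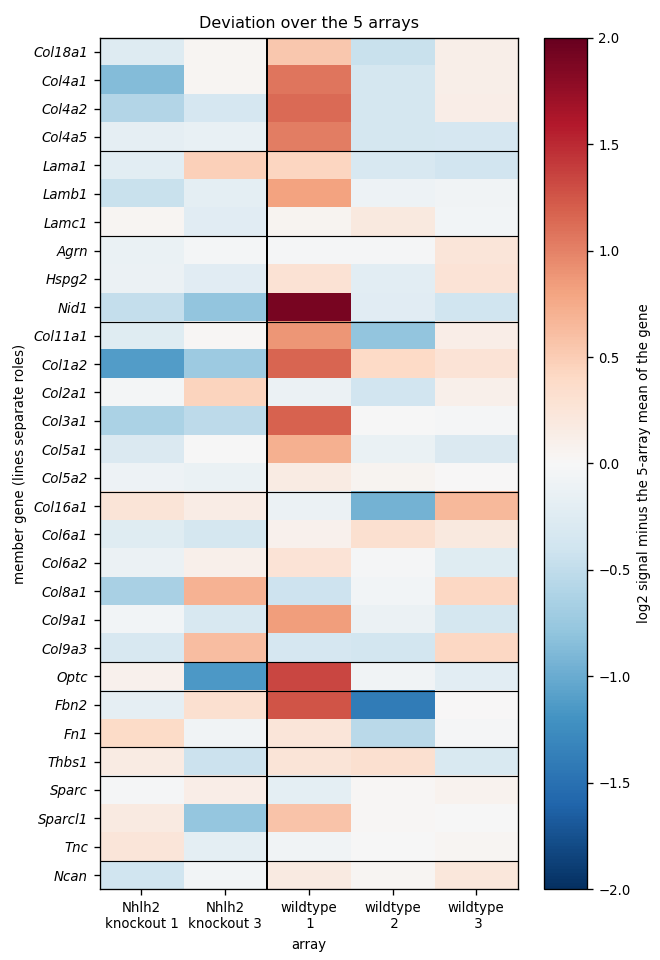
Deviation of each matrix gene on each of 5 arrays from its own mean over them (log2 signal, quantile normalised), red above and blue below the mean, knockout arrays left of wildtype arrays and lines between roles. The 4 basement membrane collagens were red in wildtype replicate 1, as were Nid1, Col1a2, Col3a1, Optc and Fbn2, which were picked by that array, and Sparc and Agrn were pale throughout.

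The knockout was first set against the wildtype within litters, on the normalised log2 scale. In litter 1 the knockout was lower for 16 of the 21 expressed matrix genes (51.0% of all expressed genes), with a median difference of -0.32. In litter 3 it was lower for 14 of 21 (49.5% of all expressed genes), with a median of -0.13. In both litters it was lower for 12, where 24.7% of all expressed genes were. Of these 12, 7 were among the 9 expressed basement membrane genes and 5 among the other 12 expressed genes. In litter 3 alone 7 of the 9 and 7 of the other 12 were lower, with medians of -0.13 and -0.09. The medians in litter 1 were -0.79 and -0.16. When the probe sets of a gene were averaged instead, 9 of the 21 were lower in litter 3 (50.8% of all expressed genes), with a median of 0.08, and 6 were lower in both litters (22.9%), a share near that of all genes. Litter 1 holds the wildtype array with lens transcripts.

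Differences of the type IV chains were larger in litter 1 than in litter 3, at -1.93 for Col4a1, -1.72 for Col4a2 and -1.20 for Col4a5, against -0.09, -0.47 and 0.19 for the same genes in litter 3. Nid1 differed by -2.37 in litter 1 and -0.39 in litter 3, and Col1a2 by -2.27 in litter 1 and -0.999 in litter 3. Both were picked by a high signal in the wildtype array of litter 1, which favours a negative difference there, so nothing is read from it. Lama1 changed sign, with -0.63 in litter 1 and 0.85 in litter 3. Sparc differed by 0.17 in litter 1 and 0.07 in litter 3, and Col2a1 by 0.07 in litter 1 and 0.34 in litter 3, so that the knockout was above its wildtype littermate for both.

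**Figure D3:**
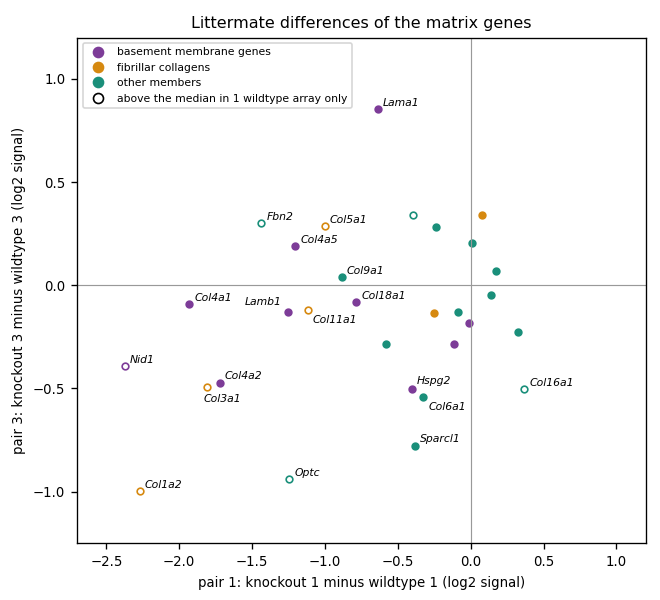
Difference of knockout minus wildtype in log2 signal within litter 1 (horizontal) and litter 3 (vertical), 1 point per matrix gene, coloured by role, with open points for genes above the median in 1 wildtype array only. Most points lie left of 0, with Nid1 and Col1a2 farthest left, and Lama1 lies highest. Genes picked by wildtype replicate 1 alone, Nid1 and Col1a2 among them, are favoured to lie left of 0.

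Both knockout arrays lay below all 3 wildtype arrays for 5 of the 21 expressed genes, Agrn, Col5a2, Col6a1, Lamb1 and Ncan, where 6.12% of all expressed genes did. None of the 21 had both knockout arrays above all wildtype arrays, where 5.86% of all expressed genes did, but leaving out an array gave up to 5 such genes, without knockout replicate 1 (29.0%). Without wildtype replicate 1 the same 5 genes were below (11.3% of all expressed genes). With knockout replicate 2 added, Agrn, Col5a2 and Col6a1 were left, where 3.93% of all expressed genes were. Col6a1 had a log2 signal of 7.23 and 7.13 in the knockout arrays, against 7.55, 7.79 and 7.66 in the wildtype arrays. Agrn had 9.40 and 9.49 in the knockout arrays, against 9.52, 9.51 and 9.78 in the wildtype arrays. For Col5a2 the values were 6.30 and 6.26 in the knockout arrays, against 6.55, 6.45 and 6.40 in the wildtype arrays. In Agrn the gap between the genotypes was narrower than the spread within either, and Col6a1 kept the genotypes apart by more than the spread within either. Ncan had 6.41 and 6.76 in the knockout arrays, against 6.99, 6.84 and 7.04 in the wildtype arrays, and Lamb1 had 6.42 and 6.67 in the knockout arrays, against 7.67, 6.75 and 6.80 in the wildtype arrays. These are the brightest probe sets. All other probe sets of Ncan, Col5a2 and Lamb1 were below the median in the wildtype arrays, and in each the genotypes overlapped. The other Ncan probe set had 4.72 and 2.94 in the knockout arrays, against 4.69, 4.11 and 1.76 in the wildtype arrays. Agrn and Col6a1 had a single probe set.

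The promoters of Col6a1, Lamb1 and Ncan are shown for the following reason. By their brightest probe sets these are the expressed genes with both knockout arrays below all wildtype arrays that had a single RefSeq window. The windows run from 250 bases before to 50 after the start in GRCm38.p6, at chr10:76725995-76726294 on the minus strand, chr12:31265043-31265342 on the plus strand and chr8:70120795-70121094 on the minus strand. Capitals mark matches on either strand to the Sp1 core GGGCGG, to the CCAAT box or to the TATAAA box.
Col6a1: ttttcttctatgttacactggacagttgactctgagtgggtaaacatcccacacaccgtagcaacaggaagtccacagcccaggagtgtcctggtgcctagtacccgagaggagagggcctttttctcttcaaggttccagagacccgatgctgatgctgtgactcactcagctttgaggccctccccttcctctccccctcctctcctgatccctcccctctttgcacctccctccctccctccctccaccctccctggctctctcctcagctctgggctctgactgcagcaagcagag
Lamb1: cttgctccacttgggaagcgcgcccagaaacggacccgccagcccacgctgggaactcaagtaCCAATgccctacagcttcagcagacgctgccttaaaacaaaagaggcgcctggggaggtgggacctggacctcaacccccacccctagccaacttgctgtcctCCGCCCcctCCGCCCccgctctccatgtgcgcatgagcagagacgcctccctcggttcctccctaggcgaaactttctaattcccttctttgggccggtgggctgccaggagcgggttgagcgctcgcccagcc
Ncan: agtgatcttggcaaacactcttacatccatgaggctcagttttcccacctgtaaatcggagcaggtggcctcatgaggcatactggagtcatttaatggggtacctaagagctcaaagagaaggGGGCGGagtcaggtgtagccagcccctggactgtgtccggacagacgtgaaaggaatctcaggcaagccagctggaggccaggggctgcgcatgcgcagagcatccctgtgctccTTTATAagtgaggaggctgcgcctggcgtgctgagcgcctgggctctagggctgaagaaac
Lamb1 held 2 GGGCGG, both on the other strand, and 1 CCAAT. Ncan held 1 GGGCGG and 1 TATAAA, the TATAAA on the other strand, and Col6a1 held no match to any of the 3. RefSeq windows were matched to 44 of the 64 genes and gave 50 windows. GGGCGG was found in 62.0% of these windows and in 35.7% of all 32851 promoter windows, CCAAT in 36.0% and 37.4%, and TATAAA in 18.0% and 13.6%. The median GC content was 59.3% in the matrix windows and 52.7% in all windows. A match is a run of letters and not a measured binding site.

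No matrix gene passed a test of genotype. In the limma fit of knockout replicates 1 and 3 against the 3 wildtype arrays, 0 of 11895 probe sets had a Benjamini-Hochberg adjusted p under 0.05 (0% called), and 106 had an unadjusted p under 0.05 (0.891%). With knockout replicate 2 included, limma again gave 0 of 12256, with 21 at an unadjusted p under 0.05 (0.171%), of which 10 were lower in the knockout (0.0816%) and 0 were matrix probe sets. The filter on low signals left 29 matrix probe sets, of 22 genes. Of these, 18 had a fold change below 0 (49.1% of all probe sets) and 11 above it, from -0.77 to 0.33, with a median of -0.15, against 0.00 over all probe sets. In knockout against wildtype, 2 had an unadjusted p under 0.05, both lower, where 0.420% of all probe sets were lower at that p. These were Col6a1, with a log2 fold change of -0.49 ± 0.17 (SE), and the second probe set of Col4a1, with -0.60 ± 0.23. With all 6 arrays these were -1.56 and -0.27, with an adjusted limma p of 0.746 and 0.761. The adjusted limma p was 1 for all 29. Without wildtype replicate 1, 14 of 27 matrix probe sets had a fold change below 0 (49.5% of all probe sets), and 0 had an unadjusted limma p under 0.05. With all 6 arrays 19 of 33 were below 0 (56.3% of all probe sets). Both counts are near the share of all probe sets.

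After Col6a1, the smallest p values among genes with a negative fold change belonged to Ncan, Col4a2, Lamb1 and Col4a1. Ncan had a normalised log2 signal of 6.59 in the knockout and 6.96 in the wildtype mean, a difference of -0.37 ± 0.19 (SE). For Col4a2 the means were 7.24 in the knockout and 8.01 in the wildtype, a difference of -0.77 ± 0.43 with a 95% interval from -1.82 to 0.29. The difference was -0.53 ± 0.32 for Lamb1 and -0.69 ± 0.48 for the brighter Col4a1 probe set. Without wildtype replicate 1 the differences shrank to -0.36 for Col4a2, -0.23 for Lamb1 and -0.30 for Col4a1, while Col6a1 had -0.55 and Ncan -0.36. With all 6 arrays Col4a2 had -0.75, Lamb1 -0.36 and the brighter Col4a1 probe set -0.34. The 3 pericyte and smooth muscle markers that could be tested also had negative values, Rgs5 with -0.62, Acta2 with -0.32 and Notch3 with -0.22, each with an adjusted limma p of 1. Anpep and Tagln of the same list, too low to be tested, were higher in knockout replicates 1 and 3 than in any wildtype array after normalisation. Of 8 endothelial markers the 2 tested were positive, with a median of 0.08, as were the 3 tested of 12 mesenchymal markers, with 0.42. Eng of the first list and Postn and Pcolce of the second were too low to be tested. These were lower in knockout replicates 1 and 3 than in any wildtype array after normalisation. The other untested genes of both lists overlapped. The 3 tested astrocyte markers were negative, with a median of -0.11. The part of any of these cell types in the collagen IV values was not tested. As deposited, the summed signal of all 8 pericyte and smooth muscle markers was 400.0, 115 and 389.9 in the knockout arrays, against 740.2, 673 and 545 in the wildtype arrays. On that unscaled signal 92.1% of all tested probe sets had a negative fold change.

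The genes with a positive fold change and the smallest p were Col2a1, Fn1, Lama1, Col9a3 and Col5a1, and then Sparc. Col2a1 had a mean log2 signal of 9.79 in the knockout and 9.46 in the wildtype, a difference of 0.33 ± 0.24 (SE). Its 95% interval ran from -0.25 to 0.92. Fn1 had a difference of 0.26 ± 0.29, Lama1 0.22 ± 0.34, Col9a3 0.24 ± 0.37 and Sparc 0.09 ± 0.18. Col5a1, tested by a probe set other than its brightest, had 0.19 ± 0.29, and without wildtype replicate 2 it had -0.085. With knockout replicate 2 in the fit, Col2a1 turned to -2.12, Fn1 to -0.61, Lama1 to -0.11 and Col5a1 to -0.13, Col9a3 had 0.44 and Sparc 0.10, and on the negative side Ncan turned to 0.22.

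**Figure D4:**
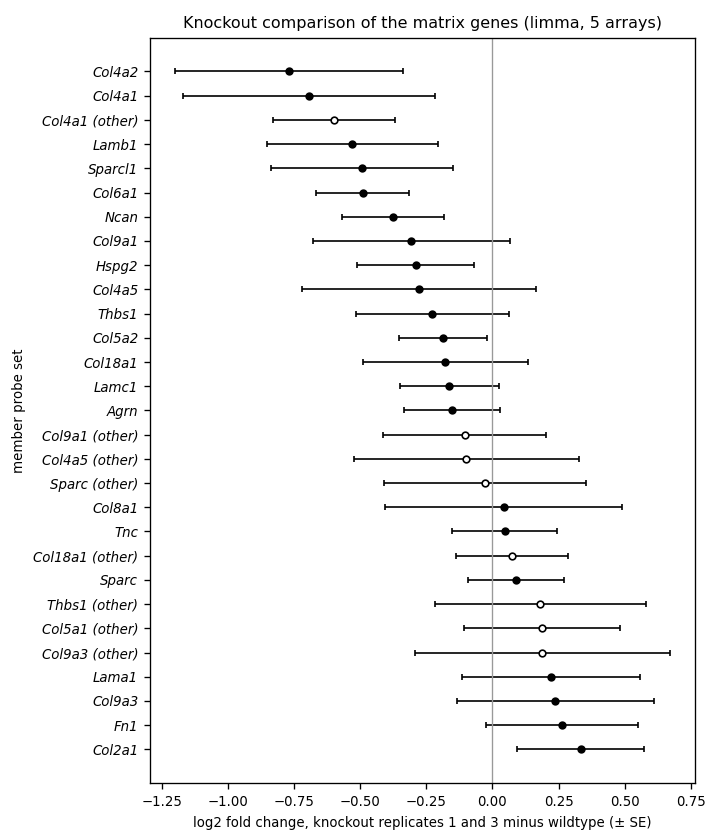
Log2 fold change of knockout replicates 1 and 3 minus the 3 wildtype arrays for the 29 tested matrix probe sets, with bars of 1 SE from the limma fit, filled points for the brightest probe set of a gene and open points for its other probe sets. Points run from -0.77 for Col4a2 to 0.33 for Col2a1, and no probe set passed the adjusted threshold.

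The machinery that makes, binds and degrades the matrix was examined from lists of genes by function. Of 19 measured genes for collagen synthesis and secretion, 8 were expressed, among them Serpinh1, the collagen chaperone of the endoplasmic reticulum, P4hb and P4ha1, subunits of prolyl 4-hydroxylase, and the lysyl hydroxylases Plod2 and Plod3. Serpinh1 had signals of 423, 6.5 and 362 in the knockout arrays, against 485, 604 and 441 in the wildtype arrays. In the limma fit 0 of 12 tested genes passed, 5 had a negative and 7 a positive fold change, and the median was 0.03. Loxl1, a cross-linking oxidase, Pcolce, an enhancer of procollagen processing, and Crtap passed the median in wildtype replicate 1 alone. Nid1 and Col1a2 did so too, and all of these genes were picked by that array. After normalisation Crtap had a log2 signal of 6.13 and 6.27 in knockout replicates 1 and 3, against 6.70, 5.89 and 5.94 in the wildtype arrays. Loxl1 had 41.2, 13.8 and 39.5 in the knockout arrays, against 179, 45.5 and 49.5 in the wildtype arrays.

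Of 25 measured matrix receptors, 12 were expressed, among them the collagen receptor Ddr1, dystroglycan (Dag1), the laminin receptor chain Itga6, Itgb1 and Itgav, the thrombospondin receptor Cd47, the agrin receptor Lrp4 and the syndecans Sdc2, Sdc3 and Sdc4. Ddr1 had signals of 3363, 865 and 2384 in the knockout arrays, against 4104, 4710 and 3681 in the wildtype arrays. All 12 were tested with 0 passing, 5 negative, 7 positive and a median of 0.01. Of 15 measured genes of matrix turnover, Mmp14, Timp2 and Adamts1 were expressed, and of 7 tested 0 passed, with 3 negative, 4 positive and a median of 0.17. Mmp14, a membrane-bound metalloproteinase, had 358, 62.2 and 249 in the knockout arrays, against 361, 575 and 353 in the wildtype arrays.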

How the data were processed

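MAS 5.0 was run by the authors on the raw scans, and the deposited values are its intensities, 1 for each probe set of an array. The values are linear and were not scaled between arrays. No count or depth applies, so the number of arrays limits precision. Of 22690 probe sets, 64 are controls, 20380 were paired with 1 symbol, 691 with several and 1555 with none in the table used. Each gene is shown by its probe set of highest wildtype mean. Signals were quantile normalised as log2(signal + 1), over 5 arrays for the main comparison, which leaves out knockout replicate 2. limma 3.58.1 (R 4.3.3; lmFit, eBayes) was fitted to probe sets above the array median in at least 2 of 5 arrays, with Benjamini-Hochberg adjustment over all of them, and was tested on simulated data. The members and gene lists were chosen with earlier results of these data known. Named genes are those expressed by role, those of widest range, and Sparc beside the 5 members of smallest p in each direction. The 9 genes above the median in 1 wildtype array were named after their values were seen. Individual mice are the replicates.

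The series design gives the littermate pairs. With group means removed over 6 arrays, r between littermates was 0.19, -0.17 and 0.05 for litters 1 to 3, and 0.31 for knockout replicate 1 with wildtype replicate 2. With 5 arrays the 2 knockout arrays are mirror images, so their values (0.39 and 0.63) are not separate checks. The litter as a block was an alternative, as were other scalings, filters, constants, an intensity trend, all 6 arrays and leaving out each array. Protein sequences and genome coordinates of the probes were not used here.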

Additional observations from a re-analysis of the deposited data

How the results depend on the processing

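The count of 0 probe sets past the adjusted limma threshold was found under all 14 alternatives of the 5-array fit, 6 arrays included, and under both alternatives of the 6-array fit. With the replicate block, 406 probe sets had an unadjusted p under 0.05 and 0 passed after adjustment (smallest adjusted p 0.999), against 106 without the block. Leaving out knockout replicate 1, 467 had such a p and 0 passed. A fit left with 1 knockout array assumes that it varies like the wildtype arrays. Col6a1, Col4a2, Lamb1 and Col4a1 were negative in all 14, with leave-one-out ranges of -0.55 to -0.43, -1.10 to -0.36, -0.70 to -0.23 and -1.14 to -0.24. With all 6 arrays Ncan turned to 0.22, Col2a1 to -2.12, Fn1 to -0.61, Lama1 to -0.11 and Col5a1 to -0.13, and Col6a1 was -1.56. On the signals as deposited Lama1 was -0.075, Col9a3 -0.048, Col5a1 -0.14 and Sparc -0.17. On that scale the median of all probe sets was -0.28 and 27 of 29 matrix probe sets were negative (92.1% of all probe sets), with a median of -0.43. Lama1 ranged from -0.11 without knockout replicate 3 to 0.56 without knockout replicate 1, and Col9a3 from -0.23 to 0.71 in the same order. Col5a1 was -0.085 with the replicate block, and -0.085 to 0.20 with 1 array left out, the lowest being without wildtype replicate 2. With no filter, 62 of 102 matrix probe sets were negative (49.15% of all probe sets). The cause of these turns was not tested.

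The count of expressed genes was 6 of 64 with the 75th percentile of each array as the limit (25.6% of all genes passed) and 46 of 64, or a share near that of all genes, with the 25th (70.8%). It was 15 with the mean of a gene's probe sets (48.1%), and 21 without any 1 of the wildtype arrays. With the mean of probe sets, 6 genes were lower in both litters (22.9% of all expressed genes) and 3 had both knockout arrays below all wildtype arrays (5.30%). That last count was 5 to 10 when 1 array was left out, and 3 with knockout replicate 2 added, alternatives chosen after seeing the data. It was 9 without wildtype replicate 2, 10 without knockout replicate 1 and 8 without knockout replicate 3, where the share of all expressed genes was 10.0%, 24.3% and 21.2%. The count with both knockout arrays above all wildtype arrays was 0 to 5 in the same way: 2 without wildtype replicate 1 (12.9%), 2 without wildtype replicate 3 (15.7%), 5 without knockout replicate 1 (29.0%) and 2 without knockout replicate 3 (19.3%). Wildtype replicate 1 was the highest array for 9 genes in all settings run.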
